A study of Homo sapiens with 6 samples.

Results

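LNCaP is an established human prostate cancer cell line that responds to androgens. Its RNA was sequenced in 6 libraries of 2 stable lines, pBabe-vector, which carries the empty retroviral vector, and pBabe-GNA13, which carries the same vector with wild-type GNA13 cDNA, the gene of the G protein subunit Gα13. In the deposited count table the heading of 1 library of each line bears the tag std, and the headings of the other 4 libraries bear the numbers 2 and 3, once in each line. The libraries tagged std were compared here with the other libraries, 2 against 4, over the genes with a mean CPM (counts scaled to a common library total) of at least 1, 14059 of the 17297 genes in the table. The comparison asks what separated the tagged libraries from the rest, gene by gene and by class of RNA.

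The labels describe all 6 cultures alike: the same number of cells seeded, 48 h of growth in medium with fetal bovine serum to 80% confluency, and total RNA extracted by 1 kit, with the libraries prepared by a sequencing provider. No label, heading or method read here says what std stands for, and how RNA was selected before sequencing was not given in the sources used here. The std library of pBabe-GNA13 also carries the number 2 in its heading, as another library of that line does. It was therefore tied to its line and to no numbered replicate. The heading of the pBabe-vector std library carries the number 1, as no other library of that line does. By that number it was taken as replicate 1. Each line was a single stable population, so the labels' biological replicates are cultures of the same line.

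Mitochondrial DNA is a small circle that encodes proteins of the respiratory chain, the RNAs of the mitochondrial ribosome and a set of transfer RNAs. Both of its strands are copied into long transcripts, which are cut apart, largely at the transfer RNAs, and most of the mature messenger RNAs receive short poly(A) tails. All other proteins of mitochondria, including most subunits of the respiratory chain, are encoded in the nucleus. The other RNA classes compared differ in how they are finished and where they stay: the long noncoding RNA MALAT1 is kept in the nucleus and lacks a normal poly(A) tail, messenger RNAs of the replication-dependent histones end in a stem-loop in place of a tail, and snoRNA host genes carry small nucleolar RNAs in their introns.

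Some of the RNAs that differed most are shown first. MT-TY and MT-TP encode the mitochondrial transfer RNAs for tyrosine and proline, both on the minus strand of the reference, at chrM:5826-5891 and chrM:15956-16023 (hg38). They stood near opposite ends of the differences found among the MT- genes that passed the test, and the capitals mark the anticodon.
MT-TY: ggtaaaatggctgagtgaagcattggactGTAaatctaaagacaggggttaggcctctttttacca
MT-TP: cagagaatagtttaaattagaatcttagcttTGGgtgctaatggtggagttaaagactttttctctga

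The nuclear genome also holds old copies of mitochondrial DNA, and reads from a copy and from its source are hard to tell apart. MTRNR2L12, listed in RefSeq (GRCh38.p14) as a pseudogene at chr3:96617186-96618223, matches the large mitochondrial ribosomal RNA MT-RNR2 (chrM:1671-3229, plus strand) at 987 of 1037 aligned positions, or 95.2%. The 60 bases below, chrM:2221-2280 and chr3:96617626-96617685 on the minus strand, are the ungapped window with the most differing letters, 9 of them, in capitals. They show how few letters separate this pseudogene from the mitochondrial RNA.
MT-RNR2: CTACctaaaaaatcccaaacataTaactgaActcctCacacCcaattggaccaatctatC
MTRNR2L12: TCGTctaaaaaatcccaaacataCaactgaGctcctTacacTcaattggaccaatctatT

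RN7SL1 and RN7SL2 encode 7SL RNA, the RNA scaffold of the signal recognition particle, which guides new secretory proteins to the endoplasmic reticulum. The genes lie at chr14:49586580-49586878 on the plus strand and chr14:49862550-49862849 on the minus strand (hg38) and are identical at 295 of 299 aligned positions, or 98.7%. Counts of the 2 genes are therefore uncertain singly.

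The libraries held 33002160 to 40628970 counts, and TMM factors lay between 0.9634 and 1.047. GNA13 stood at 820 CPM in the std library and at 886 and 747 CPM in the other libraries of pBabe-GNA13, against 65.4 to 76.7 CPM in pBabe-vector, so the tagged libraries matched the line in their headings. The 10 markers of LNCaP cells were present in every library, and their median log2 difference between std and other libraries was −0.01.

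Markers of other cell types differed between libraries in more than one way. Of 24 such markers 16 were in the table and 9 had a mean of at least 1 CPM. HBB, the β chain of haemoglobin, was at 30.3 CPM in the std library, 0 in library 2 and 33.5 in library 3 of pBabe-GNA13. In pBabe-vector it was at 3.05, 0 and 3.08 CPM. HBA2, ALB and KRT5 were likewise lowest in library 2 of each line. TRBC1 and TRBC2, genes of the T cell receptor, were so in pBabe-GNA13, where TRBC2 was at 32.4 CPM in std, 0 in library 2 and 38.4 in library 3, and both were at 0 to 0.0238 CPM in pBabe-vector. The other 3 markers had other orders. COL1A1, a collagen of fibroblasts, was at 22, 17.2 and 16.4 CPM and at 23.1, 23.1 and 11.5 CPM, so that std was level with library 2 to the digits given in pBabe-vector. VWF, a marker of endothelium, was lowest in library 3, at 25.9, 30.5 and 14.6 CPM and at 19.1, 20.6 and 6.54 CPM. KRT14, a keratin of basal cells, was at 4.26, 4.49 and 4.39 CPM and at 1.81, 2.48 and 1.81 CPM. The 9 markers together summed to 153 CPM in std, 52.3 in library 2 and 153 in library 3 of pBabe-GNA13, and to 49.5, 46.4 and 24.8 CPM in pBabe-vector. Where a library holds 0 counts, 3 counts would be 0.0853 to 0.0883 CPM. The part of these RNAs in the results that follow was not tested.

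Fits of 2 kinds were made over all 17297 genes with the quasi-likelihood test of edgeR and Benjamini-Hochberg adjustment. The first had terms for the line and the tag and measured the spread over all libraries. It treated the 2 std libraries as independent, although they deviated together from the means of their lines (Pearson r 0.659). Its p-values therefore also cannot speak for tagged libraries in general. It called 16 genes, or 0.0925% of the genes. Among the 14059 genes of at least 1 CPM, 15 were called lower in std, or 0.107%, and 1 higher, or 0.00711%. Every one of these calls was lost when any single library was left out (0 genes called in each of the 6 fits, with 166 to 956 genes at an unadjusted p under 0.05). In the second fit the libraries also formed pairs across the lines, std with std, 2 with 2 and 3 with 3, because libraries of a pair deviated together. Its p-values rest on the spread left after the line and the pairs, and not on the spread between pairs. Only a single pair carries the tag, so a small p there says that this pair differed and not that tagged libraries differ in general. A gene can pass although std lies between libraries 2 and 3. Differences given below with ± are from the first fit, also where an adjusted p with the pairs stands beside them. With this block 1326 of the 14059 genes were lower (9.43%) and 1643 were higher (11.7%) in the std pair, in which the tag cannot be told apart from anything else that set that pair of cultures or libraries off. A further reading asks for more than a p: the std library of each line had to lie beyond both other libraries of its line. This held for 1679 genes on the low side (11.9%) and 2354 on the high side (16.7%), and together with a call under the block for 840 (5.97%) and 1129 (8.03%). Of the 9 markers of other cell types 8 were higher and none was lower with the block, and 1, COL1A1, also lay above both other libraries of each line. An exact permutation of the tag within the lines has 9 arrangements and cannot give a p under 0.111 for a single gene.

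Transcripts of mitochondrial DNA were lower in the std libraries of both lines. They made up 2.09% of counts in the std library of pBabe-GNA13, against 6.75% in library 2 and 7.2% in library 3. In pBabe-vector the std library gave 2.54%, against 6.4% and 7.07%. The std libraries stood below all 4 others, which lay close to each other. In counts, that was 744645 and 1030732 in the std libraries and 2249771 to 2509472 in the others. Fewer mitochondria or genome copies in each cell and less RNA from each cannot be told apart in bulk RNA. Neither can be told apart here from a difference in how RNA was selected or the libraries were prepared.

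**Figure D1:**
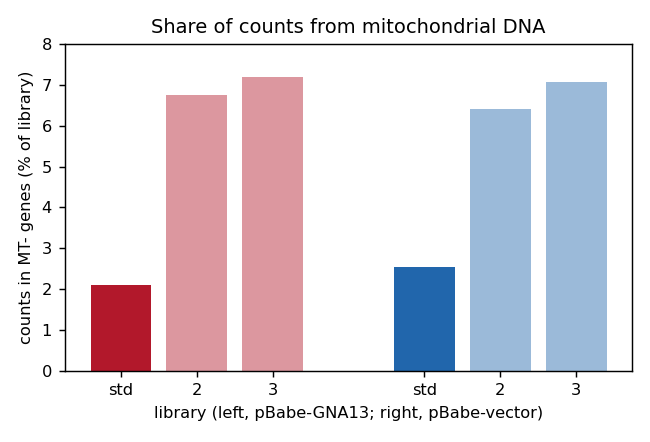
Share of all counts that fell in MT- genes, in percent (y axis), for each of the 6 libraries (x axis), with pBabe-GNA13 on the left in red and pBabe-vector on the right in blue, the std libraries in full colour. The std libraries are at 2.09% and 2.54%, and the other libraries at 6.4% to 7.2%.

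Of the 33 MT- genes, 30 reached a mean of 1 CPM, and all 30 were below both other libraries of the line in each std library, where 11.9% of all genes were. Their median log2 difference was −1.72, a 3.29-fold lower level, with −1.87 in pBabe-GNA13 and −1.56 in pBabe-vector taken line by line, against 0.003 over all 14059 genes. The first fit called 13 of the 30 lower, against 0.107% of all genes, and the fit with pairs called all 30 lower, against 9.43%. The 3 genes under 1 CPM, MT-TD, MT-TK and MT-TT, were also lower in both std libraries.

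The 13 messenger RNAs, which encode subunits of the respiratory chain and of ATP synthase, moved within a narrow range, from −1.56 to −1.94. MT-CO1, a core subunit of cytochrome c oxidase and the most abundant of them, was at 4259 CPM in the std library and at 16079 and 15321 CPM in libraries 2 and 3 of pBabe-GNA13. In pBabe-vector it was at 5577, 15826 and 16068 CPM. The difference was −1.70 ± 0.14 (log2, SE; 2 against 4 libraries; edgeR adjusted p = 0.0444, or 4.73e-17 with the pairs). MT-CYB, the cytochrome b of complex III, stood at 1136, 3977 and 3999 CPM in pBabe-GNA13 and at 1412, 3955 and 4075 CPM in pBabe-vector. Its difference was −1.66 ± 0.12 (adjusted p = 0.0444, edgeR). The other 2 subunits of the oxidase, MT-CO2 at −1.56 and MT-CO3 at −1.57, gave the smallest differences among the messenger RNAs.

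The subunits of complex I, which takes electrons from NADH, lay from −1.58 (MT-ND3) to −1.94 (MT-ND5). MT-ND5 was at 689 CPM in std and at 2532 and 3365 CPM in libraries 2 and 3 of pBabe-GNA13, and at 838, 2506 and 3260 CPM in pBabe-vector. MT-ND6, the only messenger RNA of the minus strand, was at 202, 728 and 986 CPM and at 243, 711 and 913 CPM in the same order, a difference of −1.91 ± 0.20. For both genes library 3 was the highest of its line, and the adjusted p of the first fit was 0.0701 and 0.0737 (edgeR), or 9.7e-18 and 1.78e-17 with the pairs. The ratio of MT-ND6 to MT-ND5 counts, which come from opposite strands, stayed between 0.28 and 0.293 in all 6 libraries.

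Of the 2 ribosomal RNAs of the mitochondrion, MT-RNR1 fell less far than the messenger RNAs. MT-RNR2 fell about as far as MT-CO2 and MT-CO3. MT-RNR2, the large one, was at 3754 CPM in std and at 11898 and 11597 CPM in the other libraries of pBabe-GNA13, and at 4387, 12067 and 12214 CPM in pBabe-vector (−1.56 ± 0.11, edgeR adjusted p = 0.0444). MT-RNR1, the small one, was at 498, 1111 and 1467 CPM and at 632, 1215 and 1650 CPM. Its difference of −1.28 ± 0.19 did not pass the first fit (adjusted p = 0.346, edgeR) and passed with the pairs (2.07e-15). The ratio of MT-RNR2 to MT-RNR1 counts was 7.55 and 6.94 in the std libraries, 10.7 and 9.93 in the libraries numbered 2 and 7.91 and 7.4 in those numbered 3, so for this ratio the std libraries resembled library 3.

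The transfer RNAs were few in counts and spread the widest. Of 18 measured, 15 were at 1 CPM or more, with differences from −1.14 to −2.55 and a median of −1.99. MT-TY, shown above, was at 2.3 CPM in std and at 10.1 and 10.5 CPM in the other libraries of pBabe-GNA13, and at 2.48, 8.8 and 9.72 CPM in pBabe-vector (−2.03 ± 0.16, edgeR adjusted p = 0.0444). MT-TP was at 19.6, 45.1 and 45.9 CPM and at 20.8, 43.4 and 43.7 CPM (−1.14 ± 0.10, adjusted p = 0.0444), the smallest difference of the 30. The 3 transfer RNAs with the most counts, MT-TC, MT-TN and MT-TP, had the 3 smallest differences of the called and uncalled transfer RNAs alike, at −1.34, −1.29 and −1.14. Across the 30 genes the difference rose with the log2 mean CPM with a Pearson r of 0.441 and a Spearman rho of 0.394, given as a description, since these genes share libraries and transcripts. MT-TL1, the leucine transfer RNA next to MT-RNR2, had the largest difference among the genes called in the first fit, at 5.86, 29.3 and 36 CPM and at 7.22, 27 and 36.8 CPM (−2.31 ± 0.20). The 8 genes of the minus strand had a median of −1.97 and the 22 of the plus strand one of −1.70, and the ranges overlapped.

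**Figure D2:**
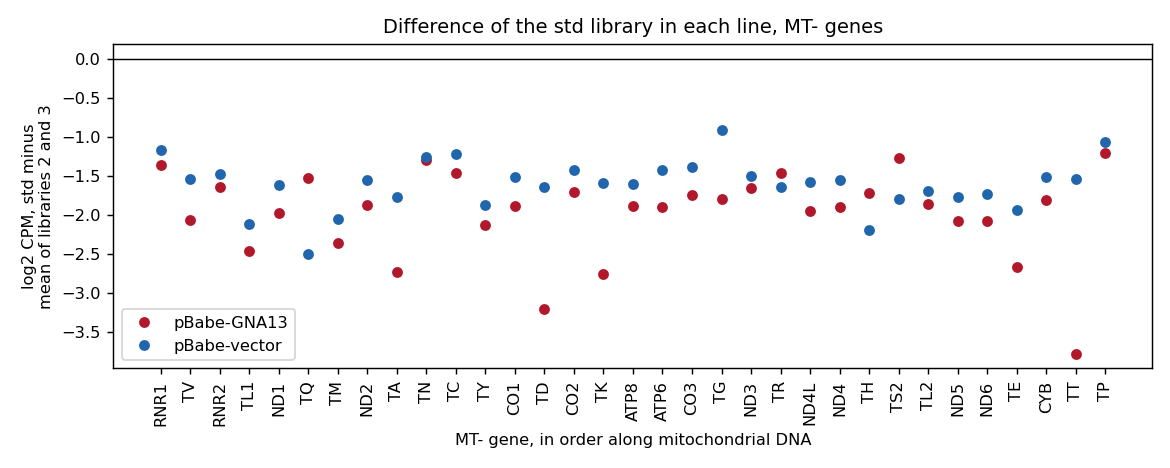
Difference between the std library and the mean of libraries 2 and 3 of the same line, on the log2 CPM scale (y axis), for the 33 MT- genes in their order along mitochondrial DNA (x axis, names without MT-), in pBabe-GNA13 (red) and pBabe-vector (blue). All points lie below 0, from −0.92 for MT-TG in pBabe-vector to −3.77 for MT-TT in pBabe-GNA13, a gene with under 1 CPM.

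Genes taken as nuclear copies of mitochondrial DNA moved with it. MTRNR2L12, shown above, was at 1.55 CPM in std and at 6.05 and 5.26 CPM in the other libraries of pBabe-GNA13, and at 2.19, 5.96 and 5.2 CPM in pBabe-vector. Its difference of −1.59 ± 0.21 passed with the pairs (edgeR adjusted p = 1.59e-07) and not without (0.228). A further 5 genes, named after 1 genomic clone, were taken as such copies from their names. The most abundant, RP5-857K21.10, was at 34.8, 132 and 120 CPM in pBabe-GNA13 and at 40.3, 142 and 144 CPM in pBabe-vector, and at −1.84 ± 0.09 it had the smallest p of the table (edgeR adjusted p = 0.026). RP5-857K21.6 was called as well, at −1.82 ± 0.16 (adjusted p = 0.0444). All 6 genes were below both other libraries in each line, where 11.9% of all genes were, with a median of −1.76. This list was drawn up after the values were seen, and how reads that fit a copy and the mitochondrial gene alike were counted is not given in the sources used here.

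Nuclear genes for mitochondria centred near 0. Of 99 nuclear genes of oxidative phosphorylation 5 were lower and 2 higher with the pairs, against 9.43% and 11.7% of all genes. Their median was −0.008 and their interquartile range ran from −0.08 to 0.06. ATP5B, the β subunit of ATP synthase, was at 1555, 1356 and 1519 CPM in pBabe-GNA13 and at 1277, 1234 and 1180 CPM in pBabe-vector. NDUFA4, a subunit of cytochrome c oxidase, fell by 0.22 with the pairs (edgeR adjusted p = 0.00685), at 155, 165 and 183 CPM and at 158, 194 and 190 CPM. An outlying member was NDUFA4L2, named here after its values were seen, at 6.4 CPM in std, 73.3 in library 2 and 2.65 in library 3 of pBabe-GNA13 and at 12.7, 56.2 and 2.9 CPM in pBabe-vector, where the std libraries lay between the other pairs. Of 76 genes of the mitochondrial ribosome 9 were lower and 7 higher, with a median of −0.002.

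The machinery that copies mitochondrial DNA into RNA and handles that RNA was also close to level. Of 34 such genes, listed after the values were seen, 2 were lower and 1 higher with the pairs, against 9.43% and 11.7% of all genes. The median was −0.04. TFAM, which packages mitochondrial DNA and starts its transcription, was at 143, 124 and 150 CPM in pBabe-GNA13 and at 165, 151 and 170 CPM in pBabe-vector (0.05 ± 0.11). POLRMT, the RNA polymerase, was at 82.2, 87.2 and 90.5 CPM and at 83.3, 88.8 and 101 CPM (−0.15 ± 0.09). LRPPRC, which stabilises mitochondrial messenger RNAs, was at 317, 317 and 294 CPM and at 315, 306 and 268 CPM (0.09 ± 0.10). FASTKD5, which takes part in cutting the transcripts, was the 1 gene higher with the pairs (0.19 ± 0.12, adjusted p = 0.0166, edgeR). Of 12 genes of the mitochondrial outer membrane and import 1 was lower and none was higher.

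**Figure D3:**
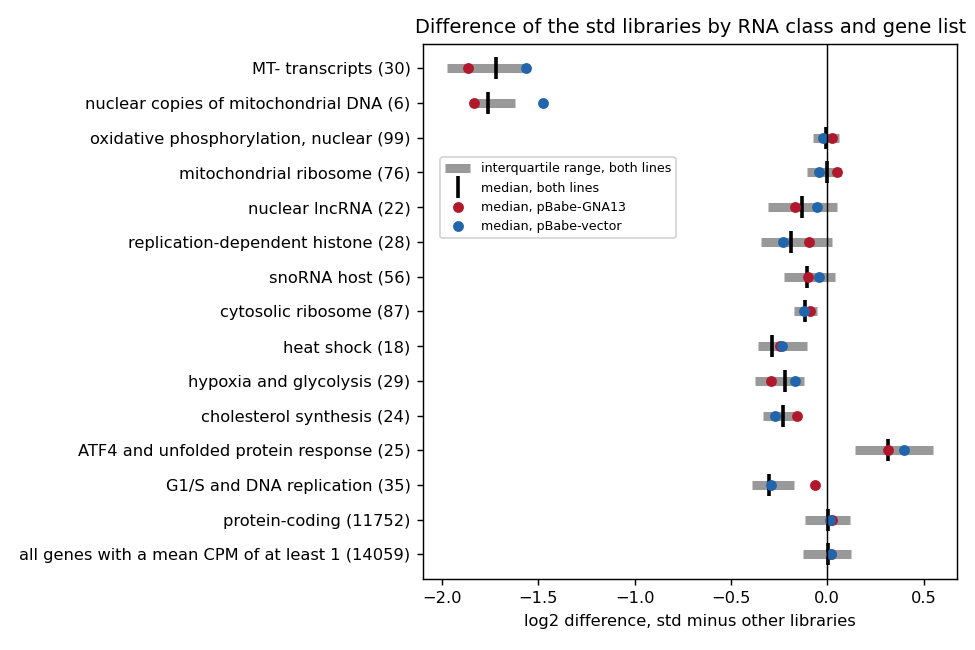
Log2 difference between std and other libraries (x axis) for RNA classes and gene lists (y axis, number of genes of at least 1 CPM in parentheses): the black tick is the median of the fitted differences, the grey bar their interquartile range, and the dots the medians of the differences in log2 CPM within pBabe-GNA13 (red) and pBabe-vector (blue). By the black ticks, MT- transcripts and nuclear copies of mitochondrial DNA stand at −1.72 and −1.76, and every other tick lies between −0.31 and 0.32.

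7SL RNA was lower in the std library than in both others of each line. RN7SL1 was at 52.1 CPM in std and at 159 and 93.1 CPM in libraries 2 and 3 of pBabe-GNA13, and at 44.3, 149 and 121 CPM in pBabe-vector. The difference was −1.44 ± 0.25, which passed with the pairs (edgeR adjusted p = 5.36e-13) and not without (0.518). RN7SL2 gave −1.503 ± 0.23, at 48.1, 149 and 91.2 CPM and at 38.5, 134 and 115 CPM. In both lines library 3 lay between std and library 2. The remaining 6 of the 8 small structured RNAs of at least 1 CPM did not pass: SNORD17, a small nucleolar RNA, was at 3.16, 1.85 and 3.84 CPM and at 3.51, 1.95 and 2.99 CPM. Of 8 genes for the protein partners of 7SL, listed after the values were seen, 1 was higher and none was lower with the pairs. Of all genes 11.7% were higher and 9.43% lower. The gene was SRP54, the GTPase subunit (0.27 ± 0.09, adjusted p = 0.00142 with the pairs, edgeR).

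MALAT1 (chr11:65497640-65508073 in hg38) was also lower in both std libraries. It was at 249 CPM in std and at 584 and 441 CPM in the other libraries of pBabe-GNA13, and at 319, 551 and 530 CPM in pBabe-vector, with no overlap in either line. Its difference of −0.90 ± 0.15 passed with the pairs (edgeR adjusted p = 1.74e-10) and not without (0.496). NEAT1, its neighbour on the chromosome and the scaffold of paraspeckles, behaved otherwise: at 483, 1160 and 565 CPM and at 665, 902 and 542 CPM, library 2 was the highest and in pBabe-vector std exceeded library 3. The log2 difference was −0.46 ± 0.37 (adjusted p = 0.957, or 0.00227 with the pairs).

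Over the 22 nuclear long noncoding RNAs of at least 1 CPM, of 44 listed, the median was −0.13. Under the block 5 were lower and 1 higher, against 9.43% and 11.7% of all genes. MIR99AHG, the host of a cluster of microRNAs, was at 25.5, 36.1 and 29.5 CPM and at 28.4, 36.5 and 30.7 CPM (−0.30 ± 0.14), below both other libraries in each line. CRNDE, named after its values were seen, stood likewise at 23.8, 34.4 and 28.5 CPM and at 30.9, 36 and 31.9 CPM. Of the list, 3 RNAs, MALAT1, MIR99AHG and CRNDE, were lower with the pairs and below both others in each line, against 5.97% of all genes. PCGEM1, a prostate transcript, was at 5.22, 7.46 and 6.72 CPM and at 1.41, 1.92 and 1.87 CPM, a difference of −0.44 ± 0.16 that did not pass (adjusted p = 0.0614 with the pairs, edgeR). SNHG14 was at 295, 261 and 269 CPM and at 352, 345 and 285 CPM, above both others in each line (0.16 ± 0.11, adjusted p = 0.0626 with the pairs).

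Messenger RNAs of the replication-dependent histones, 28 genes of at least 1 CPM, had a median of −0.19. With the pairs 5 were lower and none was higher, against 9.43% and 11.7% of all genes of at least 1 CPM. Of the 28, 12 had std between the other pairs in both lines, against 31.2% of all genes. HIST1H2AC, a histone H2A gene, was at 24.3, 36.7 and 33.1 CPM in pBabe-GNA13 and at 16.8, 28.7 and 35.8 CPM in pBabe-vector. Its difference of −0.73 ± 0.16 passed with the pairs (edgeR adjusted p = 2.54e-06) and not without (0.902). HIST1H3H was also below both others in each line, at 14.9, 15.5 and 17.5 CPM and at 11.9, 16 and 19.3 CPM (−0.35 ± 0.16, adjusted p = 0.0125 with the pairs). HIST1H1C, a linker histone with the highest level after HIST2H2BE, was at 66.9, 54.2 and 56 CPM and at 41.8, 41 and 45 CPM and did not pass. As a class these genes took 0.0364% and 0.0273% of counts in the std libraries and 0.0299% to 0.0408% in the others.

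Genes listed as replication-independent histone variants had a median of 0.04. Of 11 such genes 2 were higher with the pairs and above both others in each line, against 8.03% of all genes. With the pairs 1 was lower, against 9.43% of all genes. H3F3B, a gene of the replacement histone H3.3, was at 618, 550 and 469 CPM in pBabe-GNA13 and at 567, 503 and 441 CPM in pBabe-vector (0.27 ± 0.11). H2AFJ was at 248, 214 and 184 CPM and at 181, 176 and 151 CPM. H2AFX, named after its values were seen, was the lower gene but lay between the other libraries of each line, at 239, 167 and 427 CPM and at 192, 164 and 383 CPM.

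The snoRNA host genes, 56 of at least 1 CPM, had a median of −0.10. Under the block 17 were lower and 2 higher, against 9.43% and 11.7% of all genes. In 28 of the 56 std lay between the other pairs, against 31.2% of all genes. Both kinds of host were among the lower genes. SNHG5, a noncoding host, was at 12.8, 16.5 and 14.2 CPM in pBabe-GNA13 and at 14.2, 20.4 and 17.4 CPM in pBabe-vector (−0.34 ± 0.14, edgeR adjusted p = 0.00912 with the pairs). EEF1B2, a coding host and a subunit of the elongation factor that recharges eEF1A, was at 282, 316 and 333 CPM and at 291, 353 and 361 CPM (−0.25 ± 0.09, adjusted p = 0.00158 with the pairs). SNHG12, also named after its values were seen, had the lowest fitted difference of the class, −0.55, yet at 12, 10.7 and 25 CPM and at 16.2, 15.5 and 31.1 CPM the std libraries stood just above library 2. The hosts took 2.66% and 2.89% of counts in the std libraries and 2.49% to 2.94% in the others.

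Protein-coding genes of the nucleus, 11752 of at least 1 CPM, centred on 0.004 with an interquartile range from −0.12 to 0.12. The first fit called 1 of them, F5. The gene of coagulation factor V (chr1:169511951-169586588 in hg38), it was at 45.6 CPM in std and at 22.2 and 19.6 CPM in the other libraries of pBabe-GNA13. In pBabe-vector it was at 30.6, 14.4 and 14.1 CPM. The std library was highest in each line, and the difference was 1.11 ± 0.10 (log2, SE; edgeR adjusted p = 0.0451, or 4.86e-12 with the pairs).

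The 7 genes that followed by p on the high side did not pass the first fit and passed with the pairs, and each was above both other libraries in each line. GNB4, a β subunit of heterotrimeric G proteins, was at 75.8, 45.8 and 48.7 CPM in pBabe-GNA13 and at 95.1, 59.9 and 61.6 CPM in pBabe-vector (0.66 ± 0.08, edgeR adjusted p = 0.145, or 4.95e-10 with the pairs). NUP93, a scaffold protein of the nuclear pore, was at 309, 154 and 157 CPM and at 447, 290 and 195 CPM (0.94 ± 0.16). ACTRT3, an actin-related gene, and MYNN, a zinc finger gene, are neighbours on chromosome 3. ACTRT3 was at 5.62, 2.76 and 2.7 CPM and at 8.85, 2.86 and 2.03 CPM (1.46 ± 0.25), and MYNN was at 30.1, 19.8 and 21.9 CPM and at 40.2, 23.7 and 23.1 CPM (0.66 ± 0.11). RPS6KA3, a kinase of the RSK family, MOCOS, the sulfurase of the molybdenum cofactor, and HERC3, a ubiquitin ligase, had differences of 0.57, 0.51 and 0.51.

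Targets of the stress-induced factor ATF4 and of the unfolded protein response were higher in the std libraries. Of 25 such genes 18 were higher and none was lower with the pairs, against 11.7% and 9.43% of all genes. Above both other libraries in each line lay 14, against 16.7% of all genes. The median was 0.32, at 0.32 in pBabe-GNA13 and 0.40 in pBabe-vector. MTHFD2, a mitochondrial enzyme of folate metabolism, was at 300, 233 and 171 CPM in pBabe-GNA13 and at 340, 252 and 167 CPM in pBabe-vector (0.64 ± 0.20, edgeR adjusted p = 1.21e-09 with the pairs and 0.925 without). PHGDH, the first enzyme of serine synthesis, was at 734, 636 and 545 CPM and at 834, 721 and 617 CPM (0.32 ± 0.11). TRIB3, a pseudokinase, was at 250, 195 and 98.6 CPM and at 258, 162 and 94.5 CPM (0.89 ± 0.32). ATF4 itself was at 763, 697 and 404 CPM and at 912, 843 and 406 CPM (0.51 ± 0.34, edgeR adjusted p = 1.98e-08 with the pairs and 0.946 without). For all 4 genes library 3 was the lowest of its line and std the highest. Chaperones of the endoplasmic reticulum on the list did not pass: HSPA5, the chaperone BiP, was at 704, 621 and 786 CPM and at 861, 966 and 762 CPM, and CALR, calreticulin, at 1159, 1012 and 1104 CPM and at 1267, 1357 and 1192 CPM.

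Heat shock genes, chaperones that keep proteins folded, were lower. Of 18 genes 12 were lower and none was higher with the pairs, against 9.43% and 11.7% of all genes. Below both others in each line lay 8, against 11.9% of all genes, and the median was −0.29. HSPH1, a chaperone of the Hsp110 family, was at 125, 158 and 244 CPM in pBabe-GNA13 and at 130, 161 and 288 CPM in pBabe-vector (−0.74 ± 0.29, edgeR adjusted p = 1.62e-09 with the pairs and 0.925 without). HSP90AA1, the inducible form of Hsp90, was at 1048, 1224 and 1827 CPM and at 913, 1237 and 1817 CPM (−0.64 ± 0.23). HSPB1, a small heat shock protein, was at 353, 409 and 427 CPM and at 336, 486 and 472 CPM (−0.38 ± 0.10). In the first 2 genes library 3 stood far above library 2, so much of the difference lay between std and library 3.

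Genes of glycolysis and of the response to low oxygen were lower as well, with a median of −0.22. With the pairs 16 of 29 were lower and none higher, against 9.43% and 11.7% of all genes. Below both others in each line lay 12, against 11.9% of all genes. ENO2, an enolase, was at 24.6, 58.1 and 33.7 CPM in pBabe-GNA13 and at 34, 58.9 and 52.2 CPM in pBabe-vector (−0.80 ± 0.23, edgeR adjusted p = 1.36e-07 with the pairs). P4HA2, a collagen prolyl hydroxylase, was at 7.6, 15.6 and 10.4 CPM and at 7.34, 14.6 and 12 CPM (−0.81 ± 0.21). ENO1, the abundant enolase, was at 1311, 1712 and 1586 CPM and at 1358, 1664 and 1578 CPM (−0.29 ± 0.10), and PFKL, a phosphofructokinase, was at 245, 285 and 328 CPM and at 227, 285 and 326 CPM. GAPDH was at 1738, 1816 and 1914 CPM and at 1564, 1787 and 1633 CPM, a difference of −0.12 ± 0.10 that did not pass (adjusted p = 0.149 with the pairs).

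Cholesterol synthesis followed the same direction. Of 24 genes 12 were lower and none was higher with the pairs, against 9.43% and 11.7% of all genes, and the median was −0.23. Below both others in each line lay 11, against 11.9% of all genes. DHCR7 and SC5D act in the last steps of the pathway. DHCR7 was at 131, 154 and 173 CPM in pBabe-GNA13 and at 141, 206 and 186 CPM in pBabe-vector (−0.40 ± 0.10), and SC5D at 68.2, 81.3 and 88.8 CPM and at 77.4, 100 and 97.7 CPM (−0.34 ± 0.09).

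Of 87 genes for proteins of the cytosolic ribosome 25 were lower and none higher with the pairs, against 9.43% and 11.7% of all genes. The median was −0.12, and 72 of 87 were below the mean of the others in both lines, where 32.2% of all genes were. Their summed level lay between the others, at 77639, 86996 and 76037 CPM in pBabe-GNA13 and at 82899, 98482 and 81607 CPM in pBabe-vector. Among the most abundant, RPL13A and RPL3 lay between the other pairs, and RPS2 had a difference of 0.07. RPS21 was at 373, 466 and 454 CPM and at 503, 650 and 609 CPM (−0.31 ± 0.09, edgeR adjusted p = 9.84e-05 with the pairs). RPL27 was at 574, 686 and 686 CPM and at 644, 864 and 762 CPM, and RPL34 at 353, 435 and 404 CPM and at 415, 524 and 479 CPM. Each was below both others in each line, while 34 of the 87 genes lay between the other pairs (31.2% of all genes).

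For genes of the cell cycle the std libraries stood between the other pairs. Of 35 genes of G1/S and DNA replication, std lay between libraries 2 and 3 in both lines in 34, against 31.2% of all genes. Yet 14 were lower with the pairs, against 9.43% of all genes, and the median was −0.31. MCM7, a subunit of the replicative helicase, was at 278, 205 and 469 CPM in pBabe-GNA13 and at 258, 222 and 509 CPM in pBabe-vector. E2F1, a transcription factor of S phase entry, was at 72.2, 50.1 and 142 CPM and at 77.4, 79.8 and 202 CPM, the only case of the 35 outside that order. Of 38 genes of G2 and mitosis all 38 were between. BIRC5, survivin, was at 107, 76.8 and 200 CPM and at 101, 82.9 and 224 CPM. For no gene of these 2 lists was the std library the lowest, or the highest, of its line in both lines.

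Across protein-coding genes the difference followed base composition weakly. Over 11752 genes it correlated with the GC content of the transcript at a Pearson r of −0.241 and a Spearman rho of −0.269, taken across genes, none of which is a replicate of another. The median difference was 0.06 in the 1176 genes with the lowest GC content (30.7% to 38.3%) and −0.12 in the 1175 genes with the highest (62.3% to 76%). With log2 transcript length the values were 0.121 and 0.156. Libraries 3 and 2, neither of them tagged, also differed with GC content (−0.135 and −0.116).

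Whether the difference of the std library depended on the line was tested gene by gene. No gene passed a test of the interaction of line and tag (edgeR, 0 genes at an adjusted p under 0.05 and 26 at an unadjusted p under 0.05; DESeq2, 0 and 1), a test with 2 residual degrees of freedom. Differences taken in pBabe-GNA13 and in pBabe-vector alone correlated with a Pearson r of 0.603 over the 14059 genes and 0.438 over the 30 MT- genes, as a description. SOD2, the gene the study turned to, was at 72.2, 64.8 and 70.5 CPM in pBabe-GNA13 and at 67.9, 67.8 and 66.3 CPM in pBabe-vector. Its difference of 0.06 ± 0.09 did not pass (edgeR adjusted p = 0.972, or 0.566 with the pairs).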

How the data were processed

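RNA of 6 LNCaP cultures was sequenced as paired-end reads. Per the labels and the study's methods, the authors checked reads with FastQC 0.11.7, aligned them with STAR to Gencode 38 and counted them per gene with featureCounts; the version of STAR, the strand setting and any filter on genes are not given in the sources used here. The deposited values were whole-number counts per gene symbol, although they are described as CPM, and each library sums to its own total of 33002160 to 40628970, so depth was ample for the genes of at least 1 CPM named here. No column was left out. Many symbols are older than Gencode 38, and 14397 of 17297 were matched to Gencode 44 by symbol (13706) or by a unique RefSeq synonym (691), which gave types, coordinates, length and GC content.

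Counts of all genes were scaled by TMM and fitted with edgeR 4.0.16 (quasi-likelihood test, terms for line and tag, Benjamini-Hochberg adjustment, threshold 0.05). CPM values are scaled by the TMM factors, and log2 CPM used a prior count of 2. Each SE given is that of the first fit, the fitted log2 difference divided by the root of F. Deviations from the line means correlated within pairs (0.659 for std, 0.807 for 2 and 0.888 for 3, over 12778 genes) and at −0.736 to 0.125 otherwise, so a fit with the pairs as a block stands beside the first. In the headings only the tag joins the std libraries as a pair, and the correlation of 0.659 comes from the data tested. No 2 libraries agreed within sampling noise. The fit was also run on counts simulated with a single spread for all genes and no difference between pairs. That run cannot show how the fit behaves with pairs such as these.

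The gene lists and the choice of this comparison were made with earlier results of these data known. Named genes were the largest rises and falls called, the 8 smallest p on the high side, and in each list the 3 genes of highest mean CPM and of smallest p; others are said to be chosen after their values were seen, or serve as members of the lists on mitochondrial DNA, LNCaP and other cell types. Alternatives used DESeq2 1.42.0, limma 3.58.1, other scalings, pairs of libraries alone and each library left out. Sequences were read from hg38 and aligned with Biopython 1.88. Python 3.11.15 and R 4.3.3 were used. Some genes and sequences are not reported here.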

Additional observations from a re-analysis of the deposited data

Results flagged for a closer look

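Among the 4 libraries without the tag, 1 value stood apart from the other 3 (its gap to the nearest over the whole range, Dixon's test) for 8 of 118 values tested, and chance alone gives about 1 in 20. HBB (0.908), HBA2 (0.93), ALB (0.858), KRT5 (0.841), TRBC1 (1) and TRBC2 (1) each stood apart through library 3 of pBabe-GNA13, the highest of the 4. MT-TM (0.927) stood apart through library 3 of pBabe-vector at 3.43 CPM, against 2.82 to 2.86 CPM in the others, and MT-TQ (0.866) through the same library at 2.03 CPM, against 1.06 to 1.19 CPM.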

How the results depend on the processing

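The 16 calls of the first fit numbered 15 with genes under 1 CPM left out, 16 with DESeq2's size factors and with TMM without the MT- genes, 13 with upper-quartile factors, 21 without a term for the line and 17 with GC and length correction. They numbered 1 with library totals in place of TMM, 75 with DESeq2, 1 with limma-trend, 1 with the newer quasi-likelihood method of edgeR, and 0 with limma after quantile normalization (1265 genes at an unadjusted p under 0.05), without an abundance trend (888), at an adjusted p under 0.01, and with any single library left out (from 0 to 0). With the pairs as a block the calls numbered 3026, with DESeq2 under the block 1590, without MT- genes in the scaling 2958, and with the block and GC and length correction 2502. Against the libraries numbered 2 alone they numbered 3138 and against those numbered 3 alone 6070. The first fit's 16 genes were among the calls of each of these 6 settings. The fits with the newer quasi-likelihood method, with DESeq2 or altered scaling under the block, and with GC and length correction were chosen after the data were in view. The block could not be combined with the interaction of line and tag, and that fit was not run.

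The median of the MT- transcripts lay between −1.88 and −1.53 in all 25 settings, the latter with quantile normalization (−1.53), and all medians of nuclear lncRNA and histones stayed below 0. That of snoRNA hosts ran from −0.14 to 0.03. The protein-coding median, 0.004 as reported, was 0.088 with library totals, −0.009 with DESeq2's size factors or DESeq2, −0.010 with upper-quartile factors, 0.015 with limma-trend or the block, and −0.010 to 0.020 with 1 library left out. Against library 2 alone the differences turned to 0.22 for E2F1, 0.31 for MCM7, 0.37 for BIRC5 and 0.35 for H2AFX, and against library 3 alone to 1.73 for NDUFA4L2; the cause was not tested.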

Other observations

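Among androgen-linked genes, the listed targets of androgen signalling had a median log2 difference of 0.14. In the std pair 10 of 24 were higher and 2 lower with the pairs as a block (edgeR), against 11.7% and 9.43% of all genes. SLC45A3, a prostate transporter, was at 314 CPM in std and at 278 and 199 CPM in libraries 2 and 3 of pBabe-GNA13, and at 278, 233 and 140 CPM in pBabe-vector (0.49 ± 0.23). KLK4, a kallikrein, was at 135, 182 and 145 CPM and at 155, 196 and 173 CPM (−0.26 ± 0.12). Of the UGT2B enzymes, which conjugate androgens for excretion and were listed after their values were seen, UGT2B11 was at 6.29, 2.09 and 1.4 CPM and at 7.32, 4.16 and 2.65 CPM (1.48 ± 0.29), and UGT2B28 at 2.36, 1.12 and 0.64 CPM and at 3.05, 1 and 1.46 CPM (1.36 ± 0.29). UGT2B15, at 25.8, 14 and 16.5 CPM and at 31.5, 37.9 and 28.9 CPM, was above both others in pBabe-GNA13 only, and UGT2B17 in neither line. These genes are related, so reads may be split among them, but their sequences were not compared here.

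Genes of the zinc finger families named ZNF tended upward: 70 of 454 were higher and 15 lower with the block, with a median of 0.09. ZNF281, for example, was at 30.3, 24.4 and 23.8 CPM and at 30.5, 24.5 and 21 CPM (0.38 ± 0.11). Genes of SR splicing proteins leaned down, with 8 of 35 lower, 2 higher and a median of −0.09, and SRSF6 was at 280, 371 and 345 CPM and at 321, 361 and 339 CPM (−0.24 ± 0.10). Medians of the other lists were −0.08 for targets of nonsense-mediated decay (7 lower and 4 higher of 27), −0.03 for interferon-stimulated genes (2 and 2 of 23), 0.02 for NRF2 targets (2 and 4 of 18), 0.07 for the immediate early response (1 and 3 of 20), 0.03 for metallothioneins and zinc transporters (1 and 3 of 22), 0.11 for protocadherins (1 and 1 of 31) and −0.03 for the processing of histone messenger RNA (2 and 0 of 15). All genes together gave 9.43% lower and 11.7% higher under the same rule.

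A hormone gene and a hormone-inactivating gene fell with the block. RLN2, the hormone relaxin, was at 7.07, 14.5 and 14.8 CPM in pBabe-GNA13 and at 1.84, 4.52 and 3.96 CPM in pBabe-vector (−1.12 ± 0.15). DIO3, which inactivates thyroid hormone and was chosen after its values were seen, was at 5.76, 58.5 and 9.3 CPM and at 5.22, 71.6 and 31.2 CPM, lowest in std in each line and highest in library 2 (−2.92 ± 0.85).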
